A study of Homo sapiens with 8 samples.

Results

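The genes described here are the 10 that build the thick filament of the heart muscle sarcomere, of 19955 protein-coding genes on chromosomes 1 to 22 and X. They are the myosin heavy chains MYH6, MYH7 and MYH7B, the myosin light chains MYL2, MYL3, MYL4 and MYL7, the myosin binding protein MYBPC3, and the M-band proteins MYOM1 and MYOM2. Every peak of the deposited lists that overlapped one of these genes or the 20 kb on either side was taken, and peaks that overlapped or touched were merged over all lists. This gave 141 regions of 285853 in all.

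The assay was ATAC-seq, in which the Tn5 transposase cuts open DNA and attaches sequencing adapters to it. Cells of the human embryonic stem cell line RUES2 were taken through cardiac differentiation and sampled with 2 libraries per stage. The stages were the stem cells on day 0 (hESC), mesoderm on day 2 (MES), progenitors of the heart on day 5 (CP) and cardiomyocytes on day 14 (CM). No allele or transgene is named in the labels, and the cells of all stages came from the same line. The hESC libraries were not made from untouched cells, since cultures had received the Wnt pathway activator CHIR-99021 from the day before. CHIR-99021 stayed in the medium until day 3, and the tankyrase inhibitor Xav-939 replaced it until day 5, so that CP and CM cells had seen both. CM cells were then kept without inhibitors, from day 7 on with B27. For each peak the lists give the fold of the read pileup over the local background, which serves here as the level of accessibility, and −log10 of the q-value. A peak is listed in a library when its q-value is under 0.01.

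Myosin heavy chains are the motors of muscle, and their heads pull on actin while their tails bundle into the thick filament. Each heavy chain carries an essential and a regulatory light chain at its neck, and in the heart the atria and ventricles use different isoforms of both. Myosin binding protein C forms stripes along the filament and slows the cross-bridge, and the myomesins tie neighboring filaments together at the M-band in the middle of the sarcomere. In the developing human heart MYH6 is typical of atrial and MYH7 of ventricular muscle.

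The lists hold 55777 to 156117 peaks on these chromosomes. CM replicate 2 has the shortest list and the lowest mean background, 2.54 reads, against 3.13 to 4.62 reads in the other libraries. The CM lists are shorter than those of hESC, and of all regions 13.5% were lost from hESC to CM and only 3.15% gained. Here gained means listed in both CM libraries and in neither hESC library, and lost means the reverse. As a check of the labels, the start sites of the pluripotency genes NANOG, DPPA4 and TDGF1 were listed in both hESC libraries and in neither CM library, whereas LIN28A was listed in all 8 (4.12 and 3.88 in hESC, 4.32 and 4.67 in CM, adjusted p = 0.753) and POU5F1 in none. Of 8 cardiomyocyte markers, 5 had a listed start site in both CM libraries and 2 in both hESC libraries. These 2, ACTN2 and RYR2, had log2 differences of CM from hESC of -0.31 and -0.21 (limma, adjusted p = 0.217 and 0.564). Of the 6 markers tested, 2 were called higher in CM and 0 lower, against 0.422% and 2.88% of all start sites. PLN, 1 of those called, was listed in CM alone. All 5 mesoderm markers were listed in every library, so their listing does not check the MES label. All 3 neural markers were listed in both CM libraries, but also in both hESC and both MES libraries, so their listing is not particular to CM. Of 4 endoderm markers, 3 were listed in both hESC libraries and 2 in both CM libraries. Of the markers of other cells, ACTA2 of smooth muscle gained its start site (limma, adjusted p = 0.0132, with 1 of 4 smooth muscle markers higher). The summed fold of these 4 markers was 13.3 and 13.6 in hESC, and 18.0 and 18.0 in CM. ACTA2 alone was clearly higher, unlisted in hESC and at 7.32 and 5.96 in CM. MYH11 went from 5.19 and 5.38 in hESC to 3.76 and 3.36 in CM (limma, adjusted p = 0.153). CNN1 had 3.49 and 3.99 in hESC and 3.47 and 3.86 in CM, and TAGLN 4.61 and 4.22, and 3.49 and 4.82. The endothelial markers PECAM1 and CDH5 and the stromal markers COL1A1, COL3A1, DCN and POSTN had no listed start site in CM. KDR, at 10.1 and 10.9, and COL1A2, at 4.51 and 4.50, were listed in both CM libraries, and TEK (3.96) and PDGFRA (2.83) in CM replicate 2 alone. The summed fold of 5 endothelial markers was 15.9 and 15.7 in hESC, and 10.1 and 14.9 in CM. That of 6 stromal markers was 5.04 and 7.28 in hESC, and 4.51 and 7.33 in CM. The part of these other cells in the results below was not tested. In bulk cultures, more cells with an open site and a more open site per cell cannot be told apart.

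The start sites of 5 of the 10 genes were gained between hESC and CM. MYH6, MYL3, MYL4, MYL7 and MYOM1 had a listed peak within 500 bp of the canonical start site in both CM libraries. They had none in either hESC library. None of the 10 start sites was lost, but only MYH7B and MYOM2 were listed in both hESC libraries and could have been. Over all protein-coding genes, 0.401% of start sites were gained and 2.77% were lost. MYH7B and MYOM2 were open from the hESC stage on, and MYBPC3 was listed in 1 CM library. The start sites of MYH7 and MYL2 were listed in no library. Counted per library, the number of listed start sites was 2 and 2 at hESC, 2 and 3 at MES, 4 and 5 at CP, and 8 and 7 at CM, so that the CM libraries lay above all others.

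Levels were compared with limma on log2 fold over all 15625 start sites listed in at least 2 libraries, with Benjamini-Hochberg adjustment over all of them. A library without a peak was given the 1st percentile of its own listed folds (2.39 to 2.95). Listing depends on the q-value, so an unlisted site can lie below this floor or, where the local background is low, above it. Differences against unlisted libraries can thus be understated or overstated. Of the 10 genes, 7 entered this fit, and MYL3 and MYOM1 did so only through their CM peaks. Only MYOM1 passed, and it was higher in CM. None was lower, also at an unadjusted p under 0.05, at which 5 were higher (71.4%). These 5 had the floor in both hESC libraries, so a lower level in CM was hardly possible for them. At that unadjusted threshold 3.30% of all start sites were higher and 12.6% lower. After adjustment 0.422% of all start sites were called higher and 2.88% lower. The median log2 difference was 0.71 over the 7 genes and -0.04 over all start sites, and the former holds only genes that passed the filter. With 2 libraries per stage, which the labels do not describe as separate cultures, p-values measure at most the spread between these libraries. Where libraries are unlisted, their values are floors, and the spread between them is not one of measured folds. This holds for most values of MYL3, MYOM1 and MYH6.

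MYH6 (ENSG00000197616.13, chr14:23381982-23408273, minus strand, GRCh38) encodes the fast alpha heavy chain. Its start site was listed with a fold of 4.18 in CP replicate 2, 4.28 in CM replicate 1 and 5.19 in CM replicate 2, and in no other library. The pileup at these peaks was 42, 106 and 54 reads, and −log10 q was 12.8, 31.6 and 20.2. The site was thus listed in both CM libraries and 1 of 2 CP libraries. The log2 difference of CM from hESC was 0.91 ± 0.23 (SE, n = 2 and 2), with an adjusted p of 0.0507 in limma, just outside the threshold. The stretch of the peak next to the start site, from -221 to -22 (chr14:23408295-23408494), is shown for the gain at this promoter. It holds none of the motifs searched below, of which the wider 300 bp window had 1, an MCAT element.
MYH6 promoter: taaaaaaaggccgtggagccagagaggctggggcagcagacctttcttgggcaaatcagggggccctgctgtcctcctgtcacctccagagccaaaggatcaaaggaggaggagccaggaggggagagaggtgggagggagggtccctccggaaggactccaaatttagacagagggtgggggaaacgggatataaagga

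MYH7 (ENSG00000092054.13, chr14:23412740-23435660, minus strand), the gene of the slow beta heavy chain, lies just upstream of MYH6. Its start site was listed nowhere, yet its window was one of 2 of the 10 with more listed peaks in both CM libraries (7 and 6) than in either hESC library (0 and 2). Over all genes 1.71% of windows had more peaks in CM and 35.9% had fewer, and none of the 10 had fewer. The window held 5 gained regions, namely 4 upstream of MYH7, at -1386, -2671, -7924 and -18874 bp from its start site, and the start site of MYH6 on its other side.

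The region at -2671 bp (chr14:23438053-23438660) had a fold of 4.59 in CP replicate 2, 4.66 in CM replicate 1 and 4.76 in CM replicate 2. It was unlisted in the other 5 libraries. It differed between CM and hESC by 0.91 ± 0.30 on the log2 scale (limma over 169530 regions listed in at least 2 libraries, adjusted p = 0.0604). The neighboring region at -1386 bp was listed in both CP and both CM libraries at 3.37, 3.58, 2.63 and 3.51 (difference of CM from hESC 0.28 ± 0.20, adjusted p = 0.416). The region at -7924 bp was listed in the CM libraries alone, at 3.49 and 3.63 (0.51 ± 0.16, adjusted p = 0.0508). These regions were thus present by the authors' threshold without passing the test of level. Sequences here and below run along the gene's strand. That at -2671 bp is shown because its 300 bp window held matches to 5 of the 6 motifs searched, 4 of them in the bases printed.
MYH7 upstream, chr14:23438184-23438383: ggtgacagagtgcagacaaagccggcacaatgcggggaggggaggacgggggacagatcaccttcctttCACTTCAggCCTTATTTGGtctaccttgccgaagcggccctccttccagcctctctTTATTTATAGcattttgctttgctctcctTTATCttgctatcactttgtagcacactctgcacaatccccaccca
Capitals mark, in order, a TNAAGTG match on the other strand, a CArG box, a MEF2 site and GATAA on the other strand. TNAAGTG is the core bound by NKX2-5, the CArG box binds SRF, and GATAA binds GATA factors.

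At -18874 bp (chr14:23454407-23454798) the folds were highest at CP. This region, chosen after its values were seen, was unlisted before CP, where it had folds of 5.13 and 11.4, and it stood at 3.59 and 3.39 among CM libraries. CP exceeded MES by 1.57 ± 0.36 on the log2 scale (limma, adjusted p = 0.0441). The replicates at CP differed widely, and without CP replicate 2 the difference was 1.00 (adjusted p = 0.0834). Leaving out each library in turn gave adjusted p-values of 0.0128 to 0.236, and the call held in 1 of 8 cases, without CP replicate 1. CM was lower than CP by a log2 difference of -1.13 ± 0.36 (adjusted p = 0.124).

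MYH6 and MYH7 are near copies of each other, and the authors' mapping quality filter removes reads that align equally well to both. At the read length of 75 bases that the authors' methods give, 2.02% of the positions in MYH6 give a sequence that occurs unchanged in MYH7, and 2.32% the other way around. Both windows share 4 regions, which are counted once in all totals.

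MYH7B (ENSG00000078814.19, chr20:34955810-35002437, plus strand) encodes a slow heavy chain that is little translated in heart. Its start site shares a region with that of GSS, the glutathione synthetase gene, and was open throughout, with folds of 7.83 and 8.65 in hESC. It had 8.54 and 8.98 in MES libraries, 8.67 and 8.92 in those of CP, and 8.39 and 9.03 in those of CM. The stages overlap, and CM differed from hESC by 0.08 ± 0.12 (adjusted p = 0.828). Within the gene, a region in intron 7 (chr20:34979554-34980267) fell from 7.18 and 6.36 in hESC to 2.79 in CM replicate 1 and no peak in CM replicate 2, a difference of -1.23 ± 0.24 (adjusted p = 0.0104). Leaving out 1 library moved this p between 0.00333 and 0.0828, and the call was lost without either hESC or either CM library. The named lost region in intron 2, at 5057 bp, was listed in all 6 earlier libraries at 3.36 to 6.54 and in neither CM library (-0.82 ± 0.32, adjusted p = 0.109). A small region in intron 3 was gained, with folds of 2.81 and 3.80 in CM (adjusted p = 0.163).

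Of the ventricular light chains, MYL2 (ENSG00000111245.17, chr12:110910819-110921443, minus strand) encodes the regulatory and MYL3 (ENSG00000160808.12, chr3:46835111-46882178, minus strand) the essential chain. MYL2 had no peak at its canonical start site, but 2 regions further upstream were gained. The region at -8296 bp (chr12:110928642-110929047) had folds of 6.13 in CP replicate 2, 4.65 in CM replicate 1 and 5.76 in CM replicate 2. The region at -11077 bp (chr12:110931437-110931901) had folds of 5.48, 6.11 and 4.38 in the same libraries. Neither was listed elsewhere, so both appeared in 1 of 2 CP libraries. Both differed from hESC by 1.05 on the log2 scale in CM, with SEs of 0.38 and 0.36 and adjusted p-values of 0.0867 and 0.0734. The sequence of the region at -11077 bp, which has the higher mean −log10 q over the CM libraries (31.0 and 8.99, against 17.5 and 14.7 at -8296 bp), follows, although no motif searched was found in either.
MYL2 upstream, chr12:110931569-110931768: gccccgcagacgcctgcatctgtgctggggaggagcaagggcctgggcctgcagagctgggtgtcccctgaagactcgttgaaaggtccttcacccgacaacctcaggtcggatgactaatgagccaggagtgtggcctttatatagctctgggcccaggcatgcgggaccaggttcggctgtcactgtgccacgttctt
A region at -14072 bp, inside the noncoding gene LINC01405, was lost, with folds of 2.98 and 4.30 in hESC alone (-0.42 ± 0.21, adjusted p = 0.229).

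The start site of MYL3 was listed in CM alone, at folds of 3.43 and 4.28, with pileups of 84 and 48 reads. Its level was 0.62 ± 0.19 above hESC on the log2 scale, with an adjusted p of 0.107 among start sites. The same peak, tested among all regions, had an adjusted p of 0.0436, so its call depends on which fit is used. The latter held in 2 of 6 cases with 1 library left out, those without a CP library. It was 0.280 without hESC replicate 2, 0.134 without hESC replicate 1, and 0.0652 and 0.0597 without MES replicates 1 and 2, and without either CM library the region was not tested. A region in intron 1, at 1630 bp, was gained as well, with folds of 2.95 and 3.06 (adjusted p = 0.216). One at -15365 bp, inside PTH1R, was listed in every library from MES on. Its folds were 3.31 and 3.11 at MES, 3.31 and 5.54 at CP, and 3.53 and 4.60 at CM (adjusted p = 0.170 against hESC). At -18209 bp, also inside PTH1R, a region was listed only in hESC, at 3.18 and 2.93 (adjusted p = 0.515). The 200 bases before the MYL3 start site are shown for the CM peak that covers them.
MYL3 promoter, chr3:46863445-46863644: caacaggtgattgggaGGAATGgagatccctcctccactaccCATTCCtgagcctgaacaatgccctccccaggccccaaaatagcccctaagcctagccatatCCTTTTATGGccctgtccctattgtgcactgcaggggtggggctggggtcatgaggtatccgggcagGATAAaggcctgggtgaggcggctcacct
Capitals mark 2 MCAT elements (CATTCC, bound by TEAD factors), a CArG box and GATAA.

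The start sites of the atrial light chains were listed at earlier stages. MYL7 (ENSG00000106631.8, chr7:44138864-44141332, minus strand), the regulatory chain of the atria, was listed at its start site from MES on. Folds were 2.53 and 3.47 at MES, 3.29 and 4.93 at CP, and 4.15 and 4.03 at CM, with no peak in hESC. Its window held 3 and 3 listed peaks in hESC and 5 and 4 in CM. CM exceeded hESC by 0.71 ± 0.23 on the log2 scale (adjusted p = 0.125), and MES exceeded hESC by 0.25 ± 0.23 (adjusted p = 0.997). A region at 9153 bp, beyond the 3′ end, was listed in MES replicate 2 at 4.13 and in CM at 4.17 and 5.11 (0.88 ± 0.28, adjusted p = 0.0560). The 200 bases before the start site are shown as the counterpart of those of MYL3.
MYL7 promoter, chr7:44141333-44141532: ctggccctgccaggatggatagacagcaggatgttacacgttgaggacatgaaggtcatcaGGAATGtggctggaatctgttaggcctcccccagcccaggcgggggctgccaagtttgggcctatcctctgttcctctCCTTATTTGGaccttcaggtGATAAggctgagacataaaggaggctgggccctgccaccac
Capitals mark an MCAT element on the other strand, a CArG box and GATAA. Matches to the same 3 motifs lie before the start sites of both light chains.

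MYL4 (ENSG00000198336.9, chr17:47200446-47223679, plus strand) encodes the essential chain of the atria and of fetal muscle. Its start site was listed in CP at folds of 3.62 and 6.87 and in CM at 4.56 and 4.91, and in no earlier library. The difference of CM from hESC was 0.92 ± 0.25 (adjusted p = 0.0683), and that of CP from MES was 0.96 ± 0.25 (adjusted p = 0.321). Further into the gene, a region in intron 2 at 9861 bp (chr17:47218816-47219629) was listed from MES on and had the largest log2 difference of CM from hESC of the 86 regions tested around these genes. It was unlisted in hESC, at 4.19 and 4.00 in the MES libraries, at 4.98 and 10.7 in those of CP and at 6.40 and 7.26 in those of CM. With both hESC libraries set to their floors, CM exceeded hESC by 1.45 ± 0.34 (limma over all regions, adjusted p = 0.0202). Leaving out either hESC or either CM library gave differences of 1.36 to 1.54 and ended the call, with the highest adjusted p, 0.143, without CM replicate 1. The sequence is shown for its 3 GATA sites.
MYL4 intron 2, chr17:47219049-47219248: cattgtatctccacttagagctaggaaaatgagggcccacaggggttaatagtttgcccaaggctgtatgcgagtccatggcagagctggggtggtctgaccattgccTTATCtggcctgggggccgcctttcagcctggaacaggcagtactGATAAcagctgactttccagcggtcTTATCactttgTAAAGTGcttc
Capitals mark GATAA, on either strand, at 3 places and a TNAAGTG match at the end. A region at -4407 bp from the MYL4 start site was listed in CP replicate 2 at 5.26 and in CM at 4.09 and 4.64 (adjusted p = 0.126). A further gained region, in intron 1 at 1142 bp and named after its values were seen, was listed at 3.22 in MES replicate 1, 3.11 in CP replicate 1, and 3.04 and 4.03 in CM (adjusted p = 0.174).

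MYBPC3 (ENSG00000134571.12, chr11:47331406-47352702, minus strand) encodes cardiac myosin binding protein C. Its window was the emptiest, with 4 regions. The start site was listed in CM replicate 1 alone, at a fold of 2.94 with a pileup of 55 reads, and it was therefore not tested. CM replicate 2 has a mean background of 2.54 reads, against 4.57 in CM replicate 1, and 1% of its listed peaks lie under a fold of 2.95. Whether the site is closed in CM replicate 2 or under its detection limit cannot be told apart. The region listed in all 8 libraries lies at -2679 bp, inside SPI1, with folds of 4.18 to 7.54.

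The start site of MYOM1 (ENSG00000101605.14, chr18:3066807-3219968, minus strand) was listed in CM alone, at folds of 5.56 and 4.66 with pileups of 44 and 22 reads. CM exceeded hESC by 1.03 ± 0.19 (limma, adjusted p = 0.00940) and CP by 0.95 ± 0.19 (adjusted p = 0.0311; 0.0768% of all start sites were higher in CM than in CP). MYOM1 entered the fit over start sites only through its CM peaks, with all other libraries at their floors. It was the only one of the 10 to pass either comparison in that fit. Without hESC replicate 2 the adjusted p of the former was 0.118. Without CP replicate 2 that of the latter was 0.107. Without either CM library the start site was listed in a single library and not tested. In intron 2, at 8148 bp (chr18:3211698-3212007), a further region was listed at 4.65 in CP replicate 2 and at 5.58 and 6.02 in CM (1.21 ± 0.32, adjusted p = 0.0276). Leaving out either hESC or either CM library ended this call, with adjusted p-values of up to 0.173 without hESC replicate 2. The 200 bases before the start site and the center of the intron 2 region are shown. These are the MYOM1 regions called higher in CM than in hESC.
MYOM1 promoter, chr18:3219969-3220168: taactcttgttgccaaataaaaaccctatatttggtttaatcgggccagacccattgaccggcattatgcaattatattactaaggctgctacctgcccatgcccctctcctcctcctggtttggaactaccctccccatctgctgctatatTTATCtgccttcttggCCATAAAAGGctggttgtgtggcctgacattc
MYOM1 intron 2, chr18:3211772-3211971: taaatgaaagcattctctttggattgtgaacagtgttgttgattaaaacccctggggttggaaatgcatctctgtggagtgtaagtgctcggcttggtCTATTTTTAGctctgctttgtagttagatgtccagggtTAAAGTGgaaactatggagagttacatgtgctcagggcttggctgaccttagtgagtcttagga
In the promoter, capitals mark GATAA on the other strand and a CArG box. In intron 2, they mark a MEF2 site and a TNAAGTG match. Elsewhere in MYOM1, a region in intron 2 at 12216 bp was lost, with folds of 5.56 and 5.70 in hESC, 5.20 and 7.90 at MES, and 5.98 for CP replicate 1 (-1.07 ± 0.38, adjusted p = 0.0792). The region over coding exon 18 had folds of 11.0 and 13.9 in hESC, 8.63 in CM replicate 1 and no peak in CM replicate 2. Its difference of -1.30 ± 0.39 (adjusted p = 0.0441) was -0.52 without CM replicate 2 (adjusted p = 0.223), and the call was also lost without hESC replicate 1 (0.0781) or hESC replicate 2 (0.203).

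MYOM2 (ENSG00000036448.10, chr8:2045046-2165552, plus strand), the myomesin of fast and adult heart fibers, was open at its start site at all stages. Folds were 4.92 and 4.78 in hESC, 4.65 in MES replicate 2, 4.06 and 5.06 at CP, and 3.85 and 4.23 at CM, with no peak in MES replicate 1. CM and hESC did not overlap, but the difference of -0.26 ± 0.25 did not pass (adjusted p = 0.695), and its sign turned when pileups were compared instead of folds (0.02). No region of MYOM2 was gained. A region in intron 13 at 34635 bp (chr8:2079309-2079826) was listed in all 6 earlier libraries, at 4.30 to 6.23, and in neither CM library (-1.00 ± 0.28, adjusted p = 0.0358). It lost the call without either hESC or either CM library, with an adjusted p of up to 0.283 without hESC replicate 2. A region at 111520 bp, past the canonical transcript but within the annotated gene and at the start of a noncoding gene, fell from 10.0 and 10.8 in hESC to 6.66 and 5.65 in CM (-0.76 ± 0.19, adjusted p = 0.0238). This call was likewise lost without either hESC or either CM library, with adjusted p-values of 0.0848 to 0.159.

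**Figure D1:**
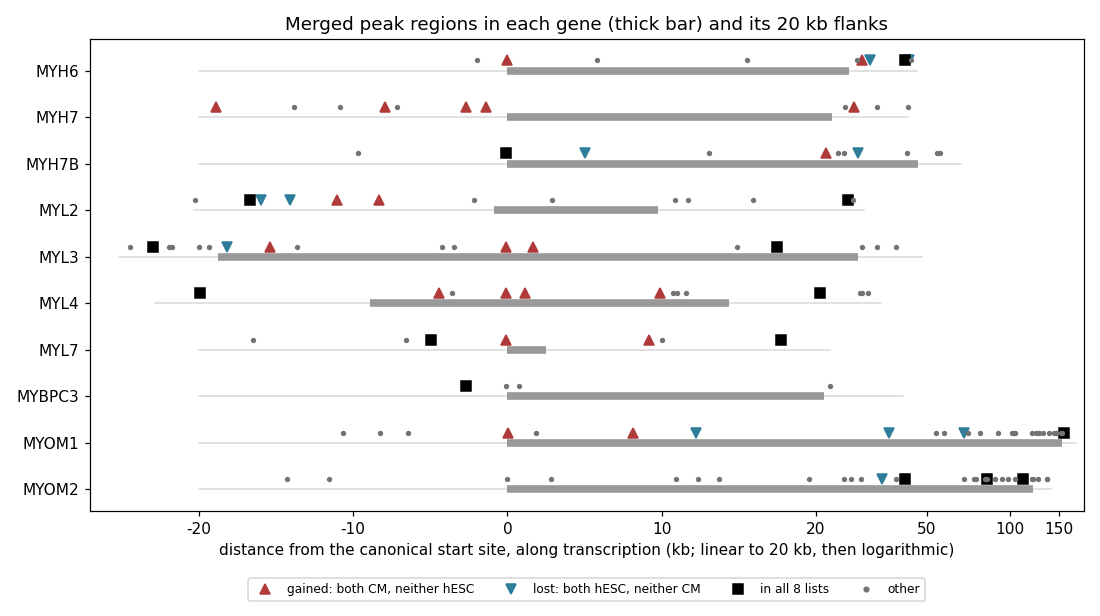
Position of each merged region (horizontal axis, kb from the canonical start site along the direction of transcription, linear up to 20 kb and logarithmic beyond) for the 10 genes, with the gene as a thick bar and its flanks as a thin line. Upward triangles are gained and downward triangles lost regions, squares are regions in all 8 lists and dots are the rest. Of the 20 gained regions 8 lie upstream and 5 at a start site, and the MYH6 promoter appears again 3′ of MYH7.

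Over all windows, 20 of the 141 regions (14.2%) were gained, against 3.15% of all regions, and 11 (7.80%) were lost, against 13.5%. Of the gained regions 5 were at start sites, 8 further upstream, 5 in introns and 2 beyond a 3′ end. These places are those of the summit in the gene's canonical transcript, and exons of other transcripts or genes were not considered. The gained region beyond MYH6, at 29271 bp, lies inside CMTM5. MYH7 held 5 of the gained regions (the MYH6 start site among them), MYL4 held 4, MYL3 held 3, and MYBPC3 and MYOM2 held none. By stage, 3 of the 20 were listed in both MES libraries and 6 in both CP libraries, against 15.3% and 32.6% of all gained regions. In at least 1 CP library 13 were listed (65%, against 62.7% of all gained regions), and 6 were listed in CM alone (30%, against 33.3%). The number of regions listed in a single library was 55 (39.0%, against 40.7% of all), and 15 were listed in all 8 (10.6%, against 9.84%).

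**Figure D2:**
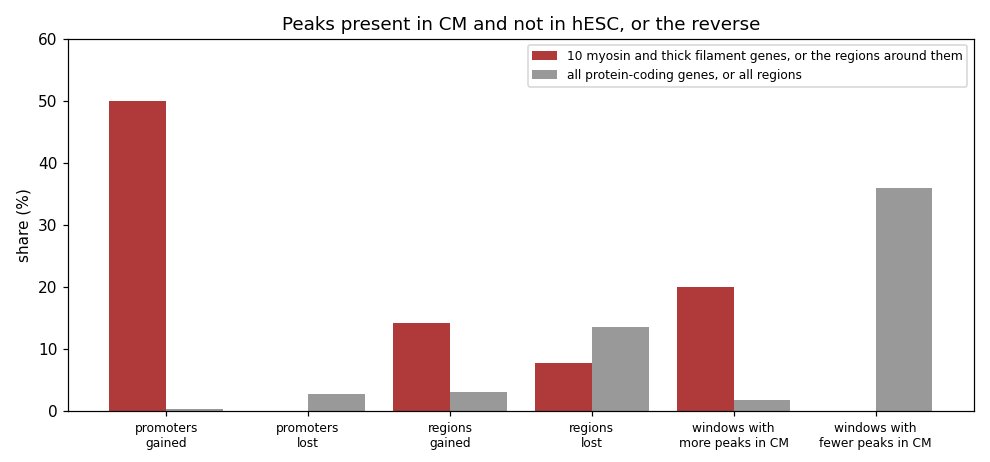
Share (%) of start sites, regions and gene windows that were gained or lost, or held more or fewer peaks in CM than in hESC, for the thick filament genes (red) and for all genes or regions (gray). Bars start at 0, and the red bars for lost start sites and for windows with fewer peaks are at 0. The red bar exceeds the gray one for gained start sites (50% against 0.401%), for gained regions (14.2% against 3.15%) and for windows with more peaks in CM (20% against 1.71%).

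In the test of levels over all regions, 86 of the 141 were listed in at least 2 libraries. Against hESC, 4 were called higher in CM (4.65%, against 3.32% of all regions tested) and 5 lower (5.81%, against 14.1%). Of the 4, the start sites of MYL3 and MYOM1 entered the fit only through their CM peaks. The others were the intron 2 regions of MYL4 and MYOM1. The 5 were those of MYH7B, MYOM1 and MYOM2 given above and the start site of CMTM5 in the MYH6 window (5.15 and 5.99 in hESC, unlisted in CM, adjusted p = 0.0362, 0.0126 to 0.221 with 1 library left out). The median log2 difference was 0.04 over the 86 and -0.19 over all regions. Centering each library on the regions listed in all 8 moved the latter to 0.03. With it, 16 of the members' regions were higher and 3 lower, and the split of all calls went from 5627 higher and 23961 lower to 10113 and 16215.

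**Figure D3:**
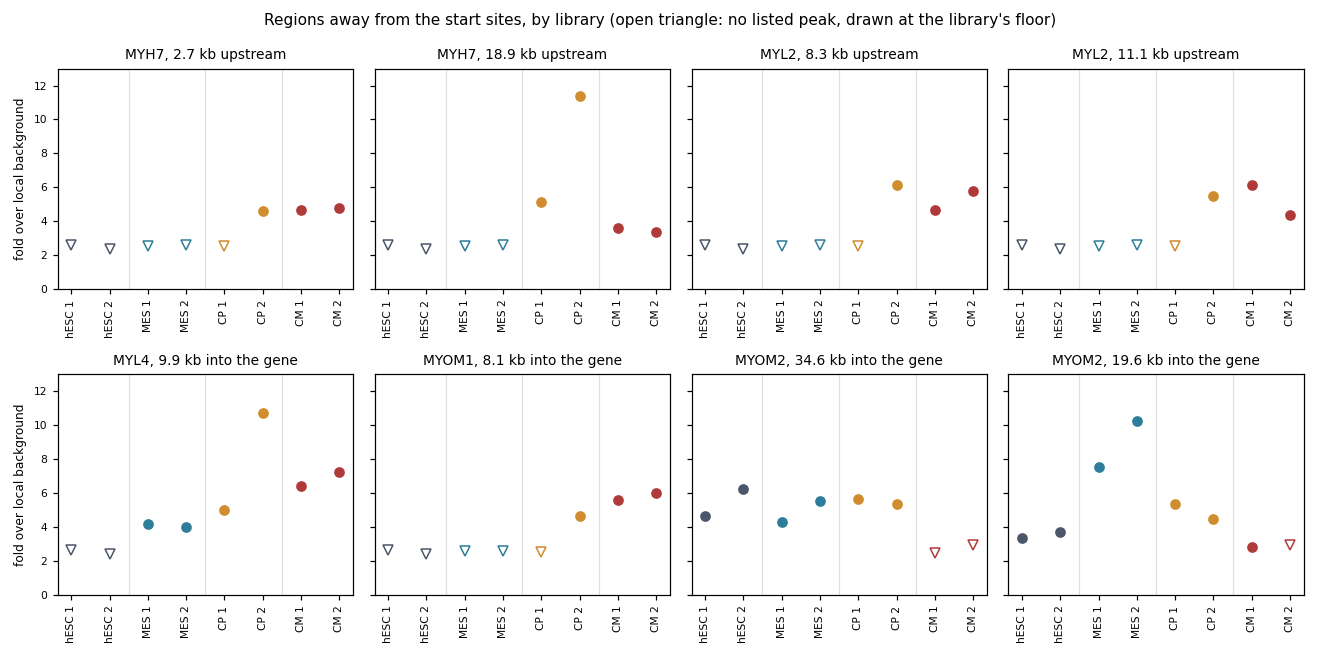
Fold over local background (vertical axis) of 8 regions away from the start sites, in the 8 libraries (horizontal axis, colored by stage). Filled points are listed peaks and open triangles unlisted libraries at their floor. MYH7 at -2671 bp and both MYL2 regions are filled in CP replicate 2 and CM, MYH7 at -18874 bp and MYL4 at 9861 bp are highest in CP replicate 2 (11.4 and 10.7), and the MYOM2 regions are lowest in CM.

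Few regions were called between successive stages. From hESC to MES 5 regions were higher (5.81%, against 7.08% of all) and none lower in limma (3.88% of all). At an unadjusted p under 0.05, 2 were lower (2.33%, against 8.49% of all). These 5, named for their call after the values were seen, lay in MYOM2 (at 19563, 38903 and 136227 bp), in intron 25 of MYOM1 and beyond MYL3 at 33286 bp. Those in intron 25 of MYOM1 and at 136227 bp of MYOM2 were listed in the MES libraries alone and entered the fit only through them. The region in intron 6 of MYOM2 at 19563 bp had folds of 3.34 and 3.72 in hESC and of 7.57 and 10.3 in MES. It then had 5.33 and 4.47 in the CP libraries, and 2.80 in CM replicate 1 with no peak in CM replicate 2. MES exceeded hESC by 1.32 ± 0.27 (adjusted p = 0.0180, and 0.144 without MES replicate 2). All 5 calls were lost without either hESC library, and their highest adjusted p with 1 library left out was 0.144 to 0.322. That at 136227 bp was lost in all 6 cases in which it could be tested. From MES to CP 1 region was higher, that of MYH7 at -18874 bp (0.819% of all), and none lower (3.42% of all). At an unadjusted p under 0.05, 10 were lower (11.6%, against 13.8% of all). From CP to CM 1 was higher, the start site of MYOM1 (0.798% of all; adjusted p = 0.0469, and 0.0624 to 0.136 with 1 library left out), and none lower (2.5% of all). The MYOM1 start site was listed in CM alone and entered the fit only through these peaks. At an unadjusted p under 0.05, 14 were lower (16.3%, against 14.1% of all).

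The 6 motifs were searched on both strands in the 300 bp around the middle of the strongest CM peak of each named region, or of the strongest hESC peak where the region was lost. They were GATAA for GATA factors, TNAAGTG for NKX2-5, AGGTGT for T-box factors and CATTCC for the MCAT element. The MEF2 site and the CArG box were searched by their consensus, and these 2 can share letters. For the shares of all regions, the 300 bp lay around the strongest peak of any library instead. Of the 18 named gained regions, 10 held GATAA (55.6%), against 59.2% of all gained regions and 31.9% of all regions. A CArG box was in 4 of them (22.2%), against 2.49% of all gained regions, 1.58% of all regions and 0.826% of regions at start sites. These were the region at -2671 bp of MYH7 and the start sites of MYL3, MYL7 and MYOM1. A share over gained start sites alone was not counted. A MEF2 site was in 3 (16.7%, against 7.43% of all gained and 2.03% of all regions), namely at -2671 and -7924 bp of MYH7 and in intron 2 of MYOM1. TNAAGTG was in 3 (24.6% of all gained regions), MCAT in 5 (25.0%) and AGGTGT in 1 (14.8%). A match describes the sequence and not its use.

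The promoters most like each gene were those with the smallest distance over the 8 log2 folds among all start sites tested. The start site of MYL3 was most like those of ASB2, KLHL38 and GSTT4 (distances 0.16, 0.17 and 0.21), and that of MYOM1 most like those of A2M, FSD2 and FITM1 (0.10, 0.22 and 0.30). All 6 were listed in CM alone, a pattern that leaves only 2 values free. MYH6 was nearest to VWA7, HAND2 and HSPB7 (0.35, 0.37 and 0.55), MYL4 to HPX, CCRL2 and SMIM6 (0.33, 0.39 and 0.50), and MYL7 to SLC30A3, WNT10B and MXRA8 (0.53, 0.53 and 0.53). MYH7B was at distance 0 from GSS, with which it shares its peak, and then nearest to HYLS1 and BPTF (0.14 and 0.14). MYOM2 was nearest to GPR12, CHRDL2 and SOX15 (0.39, 0.54 and 0.60).

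Among 12 genes listed as titin, obscurin and other partners of the thick filament, the start sites of 5 rose from hESC to CM and none fell (limma). Of all start sites 0.422% were called higher and 2.88% lower. At an unadjusted p under 0.05, 6 of the 12 were higher and 0 lower, against 3.30% and 12.6% of all start sites. The 5 were TTN, the giant protein that runs from the Z-disc to the M-band, SMYD1 and UNC45B, which help myosin to fold, TRIM55, a ubiquitin ligase of the sarcomere, and MYPN, a partner of titin. TRIM55 had no peak in hESC, 3.62 and 4.70 at MES, 8.19 and 12.5 at CP, and 10.1 and 10.2 at CM (2.03 ± 0.21, adjusted p = 0.000350). MYPN was listed in CM alone, at 5.74 and 6.22, and entered the fit only through these peaks, unlike the other 4 (1.26 ± 0.18, adjusted p = 0.00222). TTN was listed at 3.58 in hESC replicate 2, at 7.20 and 11.5 in CP and at 8.25 and 8.54 in CM (1.45 ± 0.23, adjusted p = 0.00394). The median log2 difference of the 12 was 0.81.

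Myosins of other muscles and cells were counted in the same way. Of 11 skeletal muscle myosin and M-band genes, only 4 had a start site listed in at least 2 libraries, none was called (0 at an unadjusted p under 0.05), and the number listed was 3 and 5 in hESC and 2 and 1 in CM. MYOM3, the third myomesin, was listed in all 8 libraries at 2.97 to 5.49. The 11 smooth muscle and non-muscle myosin genes were listed in every library, with none called in limma (1 lower and 0 higher at an unadjusted p under 0.05) and a median log2 difference of 0.02. MYH9, a non-muscle heavy chain, lay at 7.97 and 7.88 in hESC and at 8.32 and 8.84 in CM (0.11 ± 0.12, adjusted p = 0.742). MYH11, the smooth muscle heavy chain, went from 5.19 and 5.38 in hESC to 3.76 and 3.36 in CM (-0.57 ± 0.20, adjusted p = 0.153). The difference between these lists and the 10 genes was not tested.

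**Figure D4:**
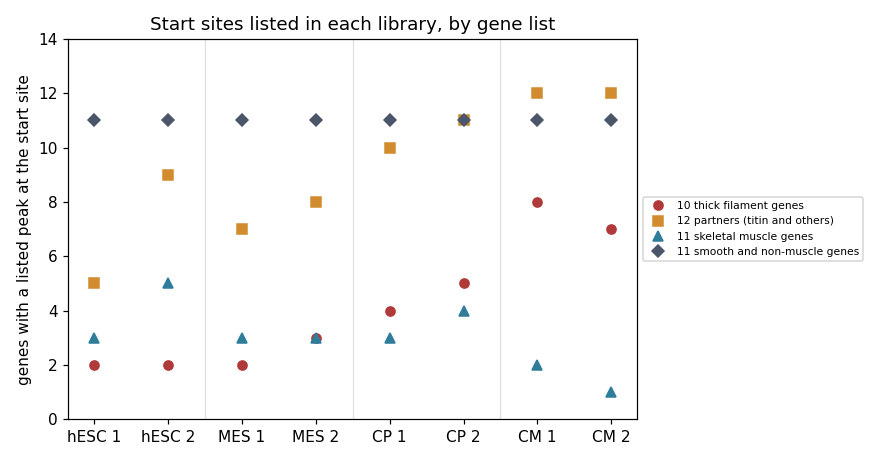
Number of genes with a listed peak at the start site (vertical axis) in each of the 8 libraries (horizontal axis) for the 10 thick filament genes (circles), 12 partners (squares), 11 skeletal muscle genes (triangles) and 11 smooth and non-muscle genes (diamonds). Circles go from 2 in both hESC libraries to 8 and 7 in CM, squares from 5 and 9 to 12 and 12, while diamonds stay at 11 and triangles are at 2 and 1 in CM.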

How the data were processed

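ATAC-seq libraries of RUES2 cells were made at 4 stages (2 per stage). According to the authors' methods and processing notes, paired reads of 75 bases were mapped to hg38 with BWA (0.7.13), reads with a mapping quality above 30 were kept, duplicates were removed with Picard, and MACS2 (2.1.0) called peaks per library (q-value 0.01, reads shifted by 100 bp and extended to 200 bp). bedtools (2.26.0) is also named. The deposited lists give the fold (a ratio to local background), −log10 p and −log10 q of each peak, and no counts.

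Peaks were assigned to genes of GENCODE 44, with 1 canonical start site per gene. Pileup and background were recovered from fold and −log10 p. limma 3.58.1 (trend, R 4.3.3) was fitted to log2 fold with a mean per stage, on all features listed in at least 2 libraries, with a threshold of 0.05 on adjusted p, two-sided. On simulated data it recovered log2 changes of 1 far less often among regions than among start sites, so a region that missed the threshold at such a difference is not shown to be unchanged. Python 3.11.15, numpy 2.4.6, pandas 2.3.3 and matplotlib 3.10.9 were used.

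Named regions were the start site, up to 3 gained regions of highest −log10 q in CM and up to 1 lost region per window, without other genes' start sites. The members and lists were chosen with earlier results of these data known. Alternatives varied the floor, filter, centering, pileup scaling, q-value (−log10 q of at least 5), list length, flank (10 kb or none), start sites and libraries.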

Additional observations from a re-analysis of the deposited data

How the results depend on the processing

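The counts of calls were more sensitive than their directions. In place of 1 member start site called higher, there were 3 with a floor of 1, 0 with a filter of 3 libraries, 0 with lists of equal length, 4 with median centering and 5 with scaled pileups. Over all start sites, a floor of 1 gave 32 higher and 287 lower, centering gave 175 higher, and scaled pileups gave 109 higher and 1392 lower, against 66 and 450. In place of 4 member regions higher and 5 lower, there were 12 and 9 with a floor of 1, 16 and 3 with centering, 22 and 11 with scaled pileups, and 1 higher with lists of equal length. All regions called higher numbered 3304 with a filter of 3 libraries, 3260 with equal lists and 10113 with centering, against 5627. Windows with more peaks in CM were 7 with equal lists, against 2, and those with fewer were 1 at −log10 q of at least 5 and 1 in the gene span alone, against 0. Gained regions numbered 12 and lost regions 7 in the gene span alone, and lost regions 3 with equal lists, against 20 and 11.

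Leaving out single libraries gave 0 to 3 member start sites higher and 0 lower, and 0 to 10 member regions higher and 0 to 7 lower. Among all start sites it gave 9 to 149 higher and 91 to 973 lower, and among all regions 76 to 7964 higher and 1635 to 31553 lower. No member region was called higher without either hESC or either CM library, and 10 were without either CP library. It gave 2 to 5 windows with more and 0 to 2 with fewer peaks, and 20 to 39 gained and 12 to 31 lost regions. Without CM replicate 2, 39 were gained and 5 windows held more peaks, without hESC replicate 2, 4 windows did, and without hESC replicate 1, 31 were lost. The cause of these changes was not tested, apart from the smaller number of libraries.

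The labels do not say whether libraries of the same replicate number belong together. The correlations of replicate differences between stages lay between -0.14 and 0.12, and weak correlations cannot decide this. With a replicate block, 3 member start sites and 7 member regions were higher, and 103 of all start sites were higher and 700 lower.

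Of 493 refits of single start sites and regions, 6 turned in sign. They were MYOM2 at its start site with scaled pileups (0.021 in both fits), the MYH6 region at 29271 bp, the MYH7 region at -1386 bp and the MYL3 region at 1630 bp with equal lists (-0.25, -0.12 and -0.18), and the MYL3 region at -18209 bp with centering (0.036).

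The lists hold no reads outside peaks, so weak accessibility cannot be told from none, and it is least visible in CM replicate 2.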

Other observations

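The windows also hold start sites of neighboring genes. The region at the start of CDC27, a subunit of the anaphase-promoting complex that lies beside MYL4, had folds of 11.4 and 10.4 in hESC and 11.4 and 12.2 in CM. That of POLD2, a DNA polymerase subunit beside MYL7, had 12.7 and 9.96 in hESC and 9.53 and 10.4 in CM. The log2 differences of CM from hESC were 0.11 ± 0.13 and -0.18 ± 0.16 (limma, adjusted p = 0.655 and 0.538).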
